A study of Rattus norvegicus with 6 samples.

Results

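The 10 genes Igfbp2, Igfbp3, Igfbp4, Igfbp5, Igfbp6, Igfbp7, Igf1r, Igf2r, Insr and Irs1 were taken by symbol from the 33566 genes of the deposited count table. Each symbol matched 1 row, and all 10 were among the 14603 genes that were tested because their counts summed to 10 or more. They were measured by RNA-seq in primary rat brain microvascular endothelial cells (rBMECs), which line brain capillaries and form the blood–brain barrier. The cells came from SD rats aged 18 to 22 days, from cerebral cortex by the labels and forebrain by the methods of the study, were purified in culture and were used after a single passage. The 3 Hcy libraries are from cells given homocysteine and the 3 Veh libraries from cells given sterile water, with no genetic change in either group. The labels give 100 μM Hcy for 24 h, while the treatment protocol also names a solution of 50 μM. Both groups were kept in a complete medium with endothelial growth supplements, whose hormone content is not given in the sources used here. The series describes its replicates as biological, without saying whether they came from separate rats, so p-values measure the spread between these samples.

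Insulin-like growth factors (IGFs) reach cells bound to secreted binding proteins, which hold the ligand in the fluid or matrix and release it when proteases cut them. Freed IGF1 and IGF2 act mainly on the IGF1 receptor, and insulin acts on the insulin receptor. These receptors are related tyrosine kinases that can pair with each other and that signal through IRS adapters to the PI3K–AKT and RAS–MAP kinase arms. The IGF2 receptor, also the cation-independent mannose 6-phosphate receptor, carries IGF2 and lysosomal enzymes to lysosomes and has no kinase. Brain endothelium is known for insulin and IGF1 receptors and for IGFBP7, a matrix-bound relative of the binding proteins with weak affinity for IGFs.

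In the main comparison, made with edgeR on all libraries, 2.34% of all genes tested passed an adjusted p of 0.05. Igfbp3 rose with Hcy and was the only member of the 10 that passed in this comparison. It no longer passed when any Hcy library or Veh replicate 2 was left out (edgeR adjusted p = 0.0520 to 0.0919). Its level was 1.87-fold that of Veh (95% interval 1.49 to 2.35, n = 3 per group). Igfbp4 and Igfbp7 were also higher in each Hcy library than in each Veh library, at 1.41-fold and 1.23-fold. Igf1r was lower in each Hcy library, at 0.706-fold. None of these passed in the main comparison. DESeq2 on the same libraries passed Igfbp7 (adjusted p = 0.0220) and Igf1r (adjusted p = 0.0175). So did edgeR with each library's trend on gene length removed (adjusted p = 0.0399 and 0.0237). Both also passed more of the 14603 genes tested, 612 in DESeq2 and 567 with the trend removed, against 341 in the main comparison. Without a filter on low counts, edgeR passed Igf1r (adjusted p = 0.0404) but not Igfbp7 (adjusted p = 0.0838), and 463 of 18700 genes in all. Insr and Igf2r were at 0.986-fold and 0.949-fold, within the spread between libraries. Igfbp2, Igfbp5, Igfbp6 and Irs1 were too sparse for a change of the size seen in Igfbp3 to be told from counting error.

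Stretches upstream of the start sites are shown for the members that these results turn on. They were read from RefSeq's promoter table for build GRCr8, which held all 10 members, in windows of 250 bases before and 50 after the start that the table gives. All are written 5′ to 3′ on the gene's strand. Igfbp3, Igfbp4 and Igfbp7 are shown because their libraries lay higher in Hcy. Capitals mark TATATA in Igfbp3, TATAAA in Igfbp4, and GGGCGG or its reverse complement in Igfbp7.
Igfbp3, chr14:86277945-86278044, minus strand: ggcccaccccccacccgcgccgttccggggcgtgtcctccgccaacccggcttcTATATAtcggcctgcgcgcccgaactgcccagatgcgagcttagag
Igfbp4, chr10:84491371-84491470, plus strand: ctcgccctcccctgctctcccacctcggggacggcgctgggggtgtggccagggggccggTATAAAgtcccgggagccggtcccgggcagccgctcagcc
Igfbp7, chr14:31091581-31091676, plus strand: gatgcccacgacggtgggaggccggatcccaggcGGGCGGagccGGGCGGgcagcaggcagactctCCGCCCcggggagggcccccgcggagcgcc

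The receptors are shown because the ratios of Igf1r to Insr and to Igf2r, given below, differed between the groups. Capitals mark CACGTG (an E-box) in Igf1r, TGTTTAC (the core of a FOXO element) in Insr, and GTCACGTGAC, an E-box with its flanks, in Igf2r.
Igf1r, chr1:130959955-130959982, plus strand: gtgcgcgcgggCACGTGtgcgcggcccc
Insr, chr12:6128887-6128914, minus strand: acgggccgcgtTGTTTACtggccggagt
Igf2r, chr1:50526736-50526815, plus strand: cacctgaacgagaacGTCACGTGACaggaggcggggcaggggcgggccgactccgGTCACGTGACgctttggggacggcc

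These motifs were searched on both strands of the whole windows and were picked with the sequences in view. TATAAA was in 14.2% and TATATA in 6.15% of the 33469 windows of the table, GGGCGG in 33.1%, CACGTG in 6.42% and TGTTTAC in 3.78%. GTCACGTGAC, which contains CACGTG, was in 78 windows, or 0.233%, and the Igf2r window held it at 2 places. Among the 10 members, TGTTTAC was also in Igfbp6, CACGTG also in Igfbp2, and GGGCGG also in Igfbp2, Igf1r, Igf2r and Irs1. TATAAA was in Igfbp4 and TATATA in Igfbp3 only. The member windows were 50.7% to 78.0% GC, 8 of the 10 at 66.7% or more, against a median of 51.7% over all windows, and the shares were not matched for GC content. A match describes these letters and is no evidence that a factor binds there.

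Libraries held 14024997 to 16764584 counts, at which 3 counts, taken as the floor of detection, are 0.178 to 0.215 CPM (read counts relative to library size, in the usual unit, scaled with edgeR's TMM factors). Such floors cover counting error only. Veh replicate 3 stood apart on the second principal component, which held 26.2% of the variance, at 30.4 against -15.9 and -19.0 in the other Veh libraries. Its difference followed gene length. Relative to Veh replicates 1 and 2, genes of up to 1501 bases had a median log2 difference of 0.24, and genes of 3615 bases or more one of -0.19. The corresponding medians of the 3 Hcy libraries lay between -0.06 and 0.06. Since Igf1r, Igf2r and Insr have deposited lengths of 4101, 8787 and 6969 bases, their results are given with and without this library, and also from a fit, added after seeing the data, that removed each library's trend on gene length.

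**Figure D1:**
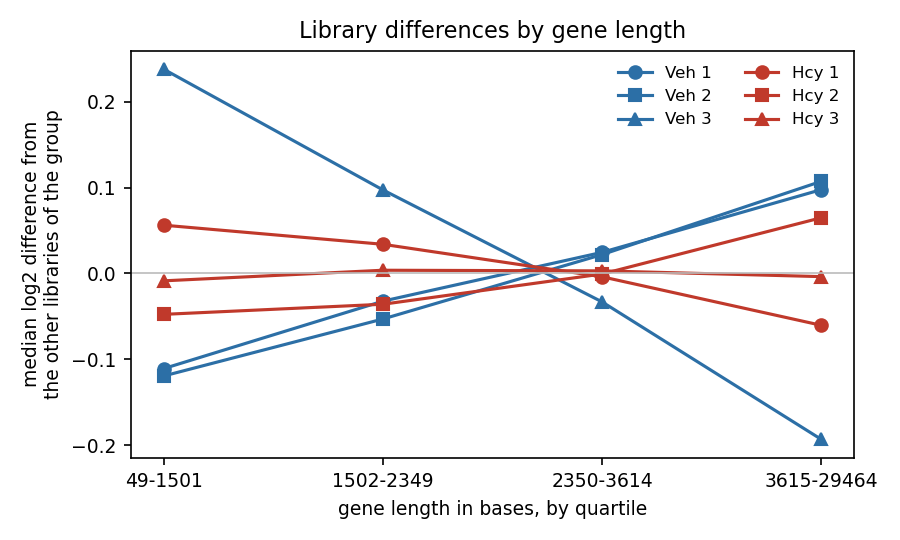
Median log2 difference of each library from the mean of the other libraries of its group (vertical axis) by quartile of deposited gene length in bases (horizontal axis), for genes with a mean of at least 1 CPM. Veh replicate 3 runs from 0.24 in the shortest quartile to -0.19 in the longest, while each other library stays between -0.12 and 0.11.

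Of the endothelial markers, 14 of 16 were found by symbol, all but Pecam1 and Abcb1a, and Emcn and Cdh5 were the most abundant per kilobase. The summed endothelial level was 2786 to 2910 CPM per kilobase in Hcy and 2607 to 2750 in Veh. Of its 13 tested genes, 8 were higher and 5 lower in Hcy. In edgeR 0 of them passed the adjusted p, where 2.34% of all genes tested did. In DESeq2 3 passed, where 612 of the 14603 genes tested did. At an unadjusted p under 0.05 there were 7, where 13.4% of all genes tested had such a p. The glucose transporter gene Slc2a1 was lower in each Hcy library, with a log2 fold change of -0.32 (edgeR adjusted p = 0.0536). Robo4 was at 23.8, 23.4 and 3.34 CPM in Hcy and 5.40, 4.01 and 2.70 CPM in Veh, so that Hcy replicate 3 lay within the Veh range. Cldn5, a barrier marker, had 0 counts in all libraries. The study shows Claudin-5 protein in rBMECs by Western blot, and the cause of this difference was not tested. Pericyte and smooth muscle markers, all 12 of which were found, summed to 73.5 to 81.2 in Hcy and 103 to 136 in Veh, most of it Acta2. Acta2 and Cnn1, contractile genes, fell with log2 fold changes of -0.64 and -1.39 (adjusted p = 0.0248 and 0.00177 from edgeR), Acta2 losing significance with any Hcy library or Veh replicate 1 left out. Pdgfrb and Rgs5, which define pericytes, were at most 0.573 CPM per kilobase in either group. Of the 11 tested genes of this list, 6 were higher and 5 lower in Hcy with a median log2 fold change of 0.44, and 0 passed the adjusted p upward. Rgs5 and Cspg4 were higher in each Hcy library, with log2 fold changes of 1.26 and 1.66 on 30 and 45 counts in all (edgeR adjusted p = 0.464 and 0.188), and Pdgfrb had a log2 fold change of 0.73 with overlapping groups (edgeR adjusted p = 0.443). Summed levels were 21.5 to 25.4 against 23.8 to 26.9 for fibroblast and meningeal markers, led by Col1a1 and Foxc1, with Dpt and Slc6a13 at 0. They were 45.0 to 46.6 against 51.9 to 56.9 for astrocyte markers, led by Gja1 and Aldoc, with Aqp4 and Slc1a2 at 0. Most of this astrocyte sum was Gja1, at a mean of 36.7 in Hcy and 44.6 in Veh, and Gfap had 10 counts in all. Sums reached at most 2.14 for microglia (led by Cd68 and Tmem119, with Cx3cr1, P2ry12 and Ptprc at 0), 4.69 for neurons (Tubb3 and Syt1, with Rbfox3, Snap25, Map2 and Nefl at 0) and 0.532 for choroid plexus and epithelium (Folr1 and Krt8). Oligodendrocyte markers summed to 28.7 to 32.5 over all libraries, led by Cnp and Mog, with Mag at 0. In bulk samples, fewer cells of a type and less RNA per cell cannot be told apart, and the part of the contractile genes in the results below was not tested.

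Per kilobase of deposited length, the members spanned about 4 orders of magnitude, and their order is a description. Igfbp7 led with 866 ± 64.0 CPM per kilobase (SD, n = 3) in Veh and 1061 ± 63.4 in Hcy. The receptors Igf2r, Igf1r and Insr followed in Veh at 15.5 ± 3.26, 14.7 ± 2.95 and 11.8 ± 2.25 CPM per kilobase, and the ranges of neighbours in this order overlapped. In Hcy the order was Igf2r, Insr and Igf1r at 14.7 ± 1.02, 11.7 ± 0.719 and 10.4 ± 0.326, without overlap between neighbours. Igfbp4 and Igfbp3 came next, at 3.63 ± 0.502 and 2.86 ± 0.320 in Veh and at 5.11 ± 0.817 and 5.34 ± 0.541 in Hcy, and they overlapped each other in both groups. Igfbp6, Igfbp2, Igfbp5 and Irs1 were all under 0.7 CPM per kilobase in every library.

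**Figure D2:**
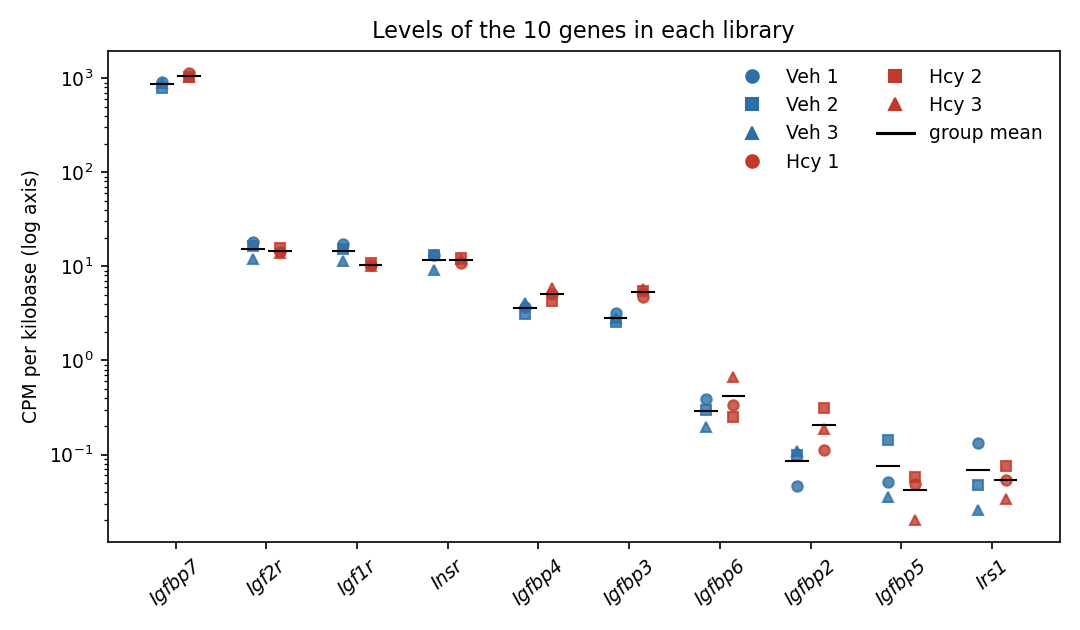
Level of each of the 10 genes in each library, in CPM per kilobase of deposited gene length on a log axis, with Veh in blue, Hcy in red, a symbol for each replicate number and a line at each group mean. Igfbp7 lies far above the others, the receptors lie between 9.22 and 18.2, and 4 genes stay under 0.7 in every library.

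Of the binding proteins, IGFBP7 thus supplied nearly all of the transcript pool. It made up 99.2% of the summed CPM per kilobase of the 6 binding protein genes in each Veh library. Its share in Hcy replicates 1, 2 and 3 was 99.1%, 99.0% and 98.8%. The share of Igfbp3 was 0.327% ± 0.0160 (SD, n = 3) in Veh and 0.501% ± 0.0771 in Hcy, and that of Igfbp4 was 0.415% ± 0.0369 and 0.478% ± 0.0858. The summed level itself lay between 1030 and 1144 CPM per kilobase in the Hcy libraries and between 799.5 and 921.5 in the Veh libraries, without overlap.

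Igfbp3 encodes the main carrier of IGFs in serum and lies on the minus strand of chromosome 14, at 87457647 to 87465374 in the deposited positions (ENSRNOG00000061910). In replicates 1 to 3 its counts were 159, 196 and 234 with Hcy, against 129, 96 and 99 with Veh. These are 11.4, 13.2 and 14.0 CPM in Hcy against 7.66, 6.12 and 6.85 CPM in Veh. All Hcy libraries lay above all Veh libraries, and Veh replicate 1 was the highest of its group. The log2 fold change was 0.90 ± 0.15 (standard error), with an adjusted p of 0.0150 in the quasi-likelihood test of edgeR after Benjamini-Hochberg adjustment over all genes tested, and by p the gene was number 154 of 14603. Among the members, 1 of 10 passed this adjusted p, where 2.34% of all genes tested did, 1.32% upward and 1.01% downward. With the fold threshold of the study's methods, a log2 difference of 1 or more in size, edgeR called 0 of the 10 and DESeq2 also 0, where edgeR called 0.486% of all genes, 0.253% upward and 0.233% downward. At an unadjusted p under 0.05 there were 4 members, Igfbp3, Igfbp4, Igfbp7 and Igf1r, where 13.4% of all genes tested had such a p. The fold of Igfbp3 held between 0.82 and 0.99 on the log2 scale with each library left out, but its adjusted p rose above the threshold without Hcy replicate 1 (0.0520), Hcy replicate 2 (0.0723), Hcy replicate 3 (0.0919) or Veh replicate 2 (0.0692).

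Igfbp4 encodes a binding protein that mostly restrains IGF action until it is cut. Its counts were 155, 139 and 216 with Hcy and 135, 106 and 129 with Veh, on chromosome 10 from 86950557 to 86962578. Its levels were 11.1, 9.34 and 12.9 CPM in Hcy and 8.01, 6.75 and 8.93 CPM in Veh. The groups did not overlap, but the lowest Hcy library and the highest Veh library were close. Its log2 fold change of 0.50 had an interval from 0.12 to 0.88 and missed the threshold (edgeR adjusted p = 0.216, 0.0761 to 0.573 over the alternatives).

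Igfbp7, on chromosome 14 from 33010300 to 33070190, had 17400, 16924 and 18795 counts in Hcy and 16972, 13723 and 14176 in Veh. Its levels were 1249, 1137 and 1122 CPM in Hcy against 1007, 874 and 981 CPM in Veh. The Hcy libraries were again all higher, and the log2 fold change was 0.29 (standard error 0.08). The adjusted p was 0.107 from edgeR, 0.0263 without Veh replicate 3, 0.0399 with the length trend removed and 0.0220 from DESeq2, but 0.160 to 0.366 without any other library, so the call depends on these choices while the log2 fold change lay between 0.23 and 0.33 whichever library was dropped. In the deposited positions its last 113 bases overlap Polr2b on the other strand, and a gene named Rpl39 lies within it. These held 9511 and 282 counts in all against 97990 for Igfbp7, and the strand setting of the counting is not given in the sources used here.

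Over the whole group, 5 of 10 members had Hcy and Veh libraries that did not overlap, 4 with Hcy above and 1 with Hcy below, where 20.1% of all genes tested did not overlap, 10.8% with Hcy above and 9.27% with Hcy below. The fifth of these was Igfbp2, a binding protein that also attaches to integrins. Its counts were 2, 6 and 4 with Hcy and 1, 2 and 2 with Veh, so that Hcy replicate 1 and all Veh libraries were under the floor. Hcy replicate 1 had the same count as Veh replicates 2 and 3. Only scaling to library size set them apart, at 0.144 CPM against 0.127 and 0.138 CPM. The ratio of its summed counts was 2.47 with a 95% interval of 0.812 to 8.97 (exact Clopper-Pearson, counting error only). Igfbp5, a matrix-bound binding protein, was counted 4, 5 and 2 times with Hcy and 5, 13 and 3 times with Veh, a ratio of 0.540 (0.235 to 1.17), and most of its Veh counts came from replicate 2. Igfbp6, the binding protein with a preference for IGF2, had 5, 4 and 12 counts in Hcy and 7, 5 and 3 in Veh, a ratio of 1.44 (0.709 to 3.01). These 3 genes overlap in counts with the floor, and a difference was not detectable at this depth. Igfbp2 and Igfbp5 are neighbours on chromosome 9, with 5421 bases between their ends, and neither was abundant in any library.

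**Figure D3:**
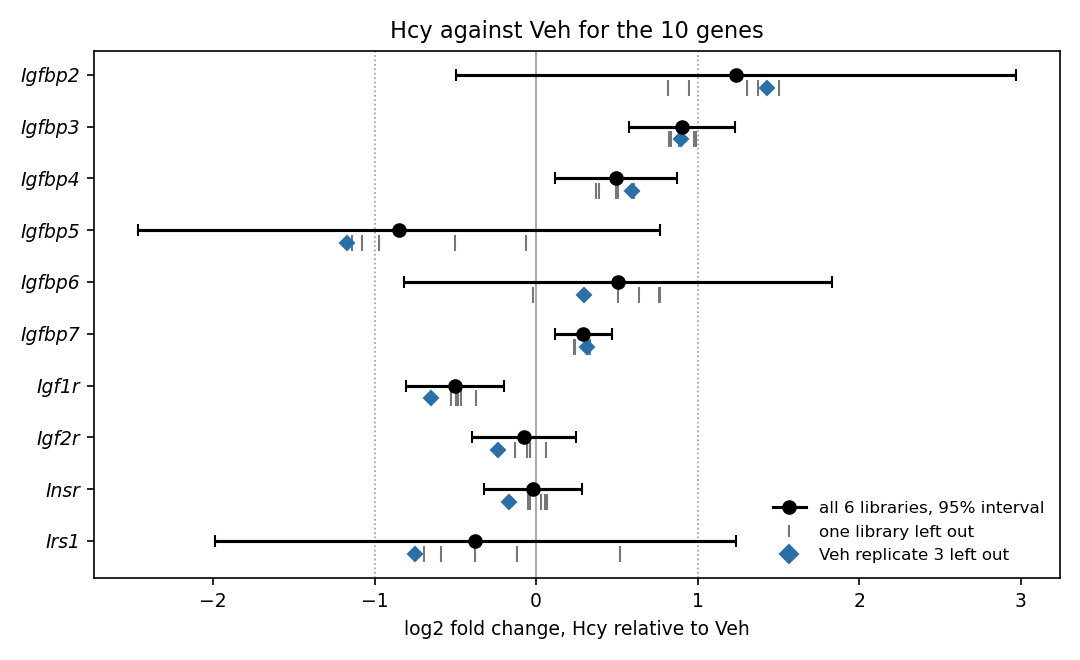
Log2 fold change of Hcy relative to Veh for each of the 10 genes (black points, edgeR on all 6 libraries, with approximate 95% intervals), with the values obtained when each library is left out (grey ticks) or Veh replicate 3 is left out (blue diamonds). The intervals of Igfbp3, Igfbp4, Igfbp7 and Igf1r do not reach 0, those of the sparse genes span more than 2 log2 units, and leaving out Veh replicate 3 moves Igf1r, Igf2r and Insr to lower values.

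Igf1r encodes the kinase receptor for IGF1 and IGF2 and is listed on chromosome 1 from 128924966 to 129206516. It had 586, 655 and 694 counts in Hcy and 1186, 991 and 676 in Veh, or 42.1, 44.0 and 41.4 CPM against 70.4, 63.1 and 46.8 CPM. The 3 Hcy libraries were close together, and Veh replicate 3 lay nearer to them than to the other Veh libraries. The log2 fold change was -0.50 (standard error 0.14, interval -0.81 to -0.20), and it missed the threshold (edgeR adjusted p = 0.113). Without Veh replicate 3 the log2 fold change was -0.65 (edgeR adjusted p = 0.000681), and without Veh replicate 1 it was -0.37 (edgeR adjusted p = 0.304). With any of the other libraries left out it lay between -0.53 and -0.47, and with the length trend removed it was -0.51 (edgeR adjusted p = 0.0237). DESeq2 gave -0.50 (adjusted p = 0.0175), edgeR without a filter on low counts gave -0.50 (adjusted p = 0.0404), and over all alternatives the adjusted p ran from 0.000681 to 0.360.

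Insr encodes the insulin receptor, on chromosome 12 from 1680957 to 1816414. It had 75.5, 84.8 and 83.4 CPM in Hcy and 91.7, 91.1 and 64.2 CPM in Veh. Veh replicates 1 and 2 were above every Hcy library and Veh replicate 3 below, so the groups overlapped. Its log2 fold change was -0.02 (interval -0.32 to 0.28, adjusted p = 0.970 from edgeR), -0.17 without Veh replicate 3 (edgeR adjusted p = 0.199) and -0.014 with the length trend removed (edgeR adjusted p = 0.957). Igf2r, on chromosome 1 from 48176106 to 48264477, showed the same order of libraries in Veh, with 125, 139 and 123 CPM in Hcy and 160, 143 and 104 CPM in Veh. Its log2 fold change was -0.08 (interval -0.40 to 0.25, adjusted p = 0.887 from edgeR), -0.23 without Veh replicate 3 (edgeR adjusted p = 0.108) and -0.060 with the length trend removed (edgeR adjusted p = 0.795). For both genes the interval leaves room for a change of about the size seen in Igfbp7.

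Within a library the receptors can be set against each other, which takes out what they share. These ratios were chosen after the values were seen and are given as a description, with no test. The ratio of Igf1r to Insr in CPM per kilobase was 0.947, 0.882 and 0.844 in Hcy and 1.30, 1.18 and 1.24 in Veh. The ratio of Igf1r to Igf2r was 0.720, 0.677 and 0.723 in Hcy and 0.942, 0.944 and 0.961 in Veh. In both ratios Veh replicate 3 stood with the other Veh libraries, and the groups were well apart. The ratio of Insr to Igf2r was 0.794 ± 0.0541 (SD, n = 3) in Hcy and 0.767 ± 0.0409 in Veh, and the groups overlapped. The ratio of Igfbp3 to Igf1r, a carrier against a receptor, was 0.516 ± 0.0563 in Hcy and 0.200 ± 0.0441 in Veh. Across the 6 libraries, log2 CPM of Insr and Igf2r had a Pearson correlation of 0.92, Igf1r and Igf2r one of 0.69, and Igf1r and Insr one of 0.56. Igfbp3 correlated at 0.84 with Igfbp4, 0.86 with Igfbp7 and -0.74 with Igf1r. These points share the 2 groups and the length trend, and the correlations are descriptions.

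**Figure D4:**
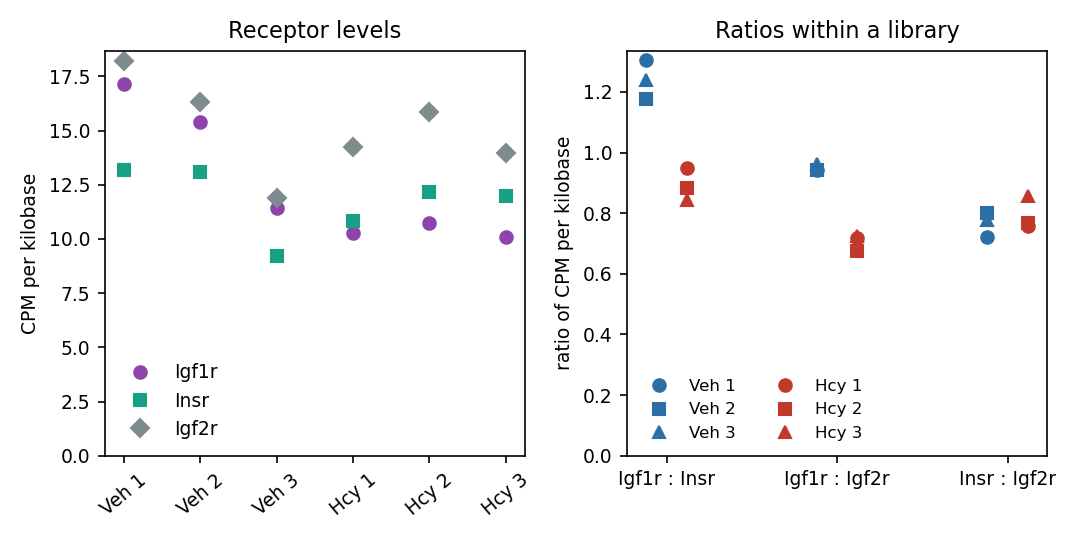
Left, levels of Igf1r, Insr and Igf2r in each library in CPM per kilobase. Right, ratios of these levels within each library, with Veh in blue and Hcy in red. Among the Veh libraries all 3 levels are lowest in replicate 3, while the ratio of Igf1r to Insr is 1.18 to 1.30 in Veh and 0.844 to 0.947 in Hcy.

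Irs1, an adapter that links both kinase receptors to PI3K, was close to the floor, with 4, 6 and 3 counts in Hcy and 12, 4 and 2 in Veh. The ratio of its summed counts was 0.745 (exact 95% interval 0.335 to 1.61, counting error only), and 12 of its 18 Veh counts were in replicate 1. Irs2, the related adapter, was more abundant at 26, 21 and 27 counts in Hcy and 64, 32 and 22 in Veh. Its log2 fold change of -0.60 (standard error 0.36) missed the threshold (edgeR adjusted p = 0.542), and the groups overlapped. With each library left out, the log2 fold change of Irs2 ran from -0.84 without Veh replicate 3 to -0.13 without Veh replicate 1. Among the 10 tested adapters and kin, Shc1 was the most abundant per kilobase, with a log2 fold change of -0.09, and 0 passed the adjusted p in edgeR or DESeq2, with 1 at an unadjusted p under 0.05.

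The ligands were nearly absent from the libraries. Igf1, Ins1, Ins2, Igfals and Igfbpl1 had 0 counts in all 6 libraries, which is under the floor of 3 counts per library. Igf2 had 10, 7 and 6 counts in Hcy and 10, 7 and 7 in Veh, about 0.5 CPM in each group, and a difference of 0.00 ± 0.49 on the log2 scale (standard error, edgeR adjusted p = 0.998). Igfbp1 had 2, 3 and 0 counts in Hcy and 3, 0 and 3 in Veh, so that no library was above the floor.

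The other genes of the pathway were described through lists of 123 symbols besides the members, of which 114 were in the table and 103 were tested. Of the 103, 4 passed the adjusted p, all of them higher in Hcy, or 3.88% against 2.34% of all genes tested. With the fold threshold as well, 1 was called. In all, 45 were higher and 58 lower, with a median log2 fold change of -0.04 against -0.02 over all genes tested. The medians of the lists lay between -0.25 and 0.19.

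The list of proteases that cut binding proteins also held the stanniocalcins Stc1 and Stc2, which restrain some of them. All 9 tested genes were higher in Hcy, with log2 fold changes from 0.02 to 3.41 and a median of 0.19, and 2 passed the adjusted p. Mmp9, a gelatinase, was at 9.12, 6.98 and 12.4 CPM in Hcy and at 1.31, 0.637 and 0.692 CPM in Veh, which is 3.41 on the log2 scale (edgeR adjusted p = 0.00136). Plat, tissue plasminogen activator, was at 847, 754 and 842 CPM in Hcy and 604, 597 and 662 CPM in Veh. The difference was 0.39 ± 0.07 on the log2 scale (standard error, edgeR adjusted p = 0.0310). Leaving out any library other than Veh replicate 3 took it past the threshold, to an adjusted p of up to 0.189. Htra1, which cuts several binding proteins and itself has an IGFBP-type domain, was the most abundant gene of this list, at 1645 CPM per kilobase in Hcy and 1620 in Veh, with a log2 fold change of 0.02 (edgeR adjusted p = 0.927). Pappa2, the protease of IGFBP3 and IGFBP5, had 0 counts in all libraries, and Pappa was not found by symbol.

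Among 11 tested proteins that share the IGFBP-type domain without being IGFBPs, 3 were higher and 8 lower in Hcy, with a median log2 fold change of -0.13, and 2 passed the adjusted p. Ccn3, a matricellular protein, had 8234, 8390 and 10750 counts in Hcy and 5591, 4659 and 4126 in Veh. This is 599 ± 39.6 CPM (SD, n = 3) against 305 ± 24.1 CPM, a log2 fold change of 0.97 ± 0.08 (SE, edgeR adjusted p = 0.000801), and it passed the adjusted p in every alternative. Htra3, a serine protease related to HTRA1, was at 38.5 ± 2.72 CPM in Hcy and 25.7 ± 3.05 CPM in Veh (log2 fold change 0.59, adjusted p = 0.0283 from edgeR), and lost significance without any Hcy library or without Veh replicate 2, with adjusted p up to 0.142. Ccn2 and Esm1, the latter an endothelial proteoglycan, were lower in each Hcy library, with log2 fold changes of -0.21 and -0.18, and did not pass (adjusted p = 0.224 and 0.199 from edgeR).

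Downstream of the receptors, 0 of 26 tested genes of the PI3K, AKT and mTOR arm passed the adjusted p in edgeR or DESeq2, and 0 had an unadjusted p under 0.05. Their log2 fold changes had a median of -0.05 and a lowest value of -0.31, and the most abundant gene per kilobase was Eif4ebp1, an mTOR target that represses translation, at 0.16. It was close to Akt1, at 160.5 against 160.3 CPM per kilobase in Veh and 179 against 172 in Hcy. Of 15 tested genes of the RAS and MAP kinase arm, likewise 0 passed with either tool and 0 had an unadjusted p under 0.05, with Mapk3 (ERK1) the most abundant per kilobase at a log2 fold change of 0.17. Without Veh replicate 3, Pik3cb, Gsk3b, Rptor and Eif4ebp1 passed the adjusted p, with log2 fold changes of -0.39, -0.30, -0.28 and 0.29. None of these 4 passed with the length trend removed.

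Of 16 tested negative regulators, 10 lay higher and 6 lower with Hcy, while 0 passed in edgeR, with 3 at an unadjusted p under 0.05. DESeq2 passed 2 of them, where it passed 612 of all 14603 genes tested. Those 2 were Trib3, a pseudokinase that binds AKT, and Ptprf, a receptor phosphatase that acts on the insulin receptor. Trib3 was at 24.99, 17.9 and 22.9 CPM in Hcy and 14.8, 14.0 and 13.0 CPM in Veh, 0.65 apart on the log2 scale (edgeR adjusted p = 0.0507, 0.00311 to 0.223 over the alternatives). Ptprf was at 28.8, 31.0 and 26.7 CPM in Hcy and 20.8, 20.2 and 14.8 CPM in Veh, 0.63 apart on the log2 scale (edgeR adjusted p = 0.0547, 0.00229 to 0.214 over the alternatives). Hcy and Veh libraries did not overlap in either gene. The most abundant of this list per kilobase was the ubiquitin ligase gene Nedd4, with a log2 fold change of 0.07.

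FOXO factors are held out of the nucleus by insulin and IGF signalling. Of 14 tested FOXO genes and textbook targets, among them Insr and Irs2, 2 lay higher and 12 lower with Hcy, with a median log2 fold change of -0.07. The 2 higher were the targets Bcl2l11 and Cdkn1b, with log2 fold changes of 0.25 and 0.15 (edgeR adjusted p = 0.249 and 0.485). In edgeR 0 of the 14 passed, with 3 at an unadjusted p under 0.05. DESeq2 passed 1 of them, where it passed 612 of all 14603 genes tested. That gene, Cited2, was also the most abundant of the list per kilobase and had a log2 fold change of -0.26 (edgeR adjusted p = 0.119). Of the 3 IGF2 mRNA-binding proteins, Igf2bp2 was the most abundant per kilobase, at 9.84 ± 1.96 CPM in Hcy and 11.7 ± 2.25 CPM in Veh, and 0 passed with either tool, with 0 at an unadjusted p under 0.05.

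**Figure D5:**
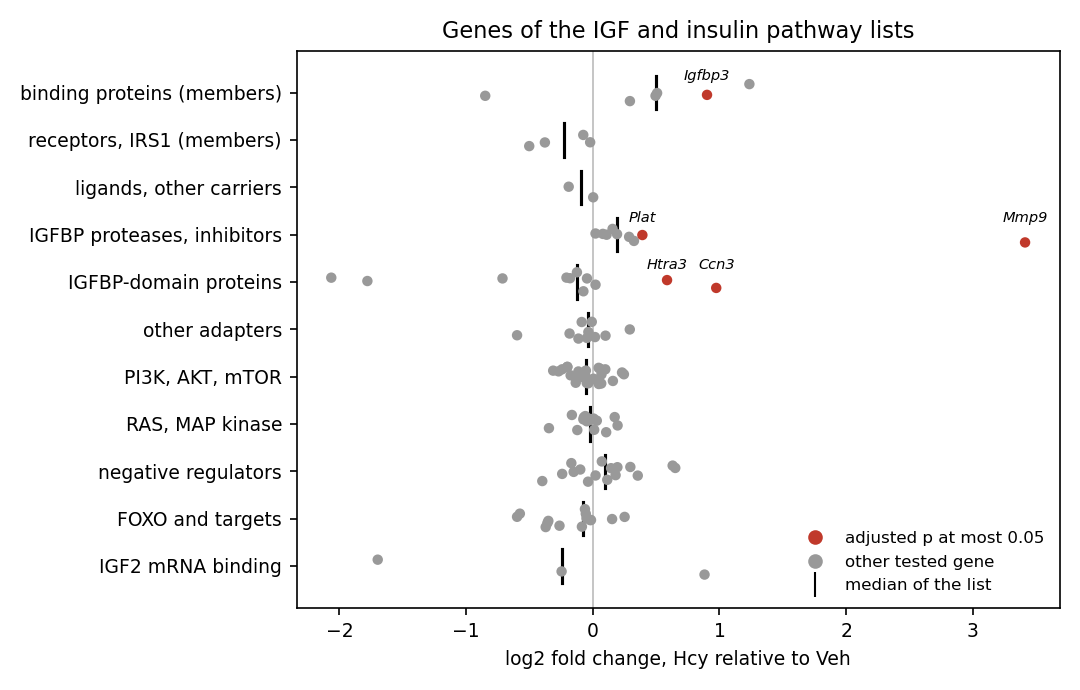
Log2 fold change of Hcy relative to Veh for each tested gene of the members and of the pathway lists, 1 point a gene, red where the adjusted p from edgeR is at most 0.05, with a black line at the median of each list. Red points are Igfbp3, Plat, Mmp9, Htra3 and Ccn3, all above 0, and the PI3K and MAP kinase lists stay within 0.4 of 0.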

How the data were processed

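The table deposited by the authors holds whole-number read counts for each gene in 6 libraries, not normalized, with gene positions and lengths. The submitters' processing notes name HISAT2 2.2.1, StringTie 2.2.3, featureCounts 2.0.6 and DESeq2 1.42.0, with builds mRatBN7.2 and rn7. The table names no build. Its chromosome 1 positions run to 282724300, and its positions were not read as mRatBN7.2 nor mixed with GRCr8. The authors' table of fold changes and p-values was not used.

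Computation used R 4.3.3, edgeR 4.0.16 and DESeq2 1.42.0. Genes with at least 10 summed counts were tested with edgeR's quasi-likelihood test, TMM factors and condition as the only term, with Benjamini-Hochberg adjustment over all tested genes. Genes were called at an adjusted p of 0.05 or less with a log2 fold change of 1 or more in size. Intervals are log2 fold change ± standard errors times a t quantile. Tests were checked on simulated counts.

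The members and lists were chosen with earlier results of these data known. Besides the members, the text names pathway genes with an adjusted p of at most 0.05, Igf1, Igf2, Irs2, the most abundant gene of each pathway list, the 2 most abundant of each marker list, and markers that passed. Other genes were chosen after their values were seen. Alternatives were DESeq2, other scalings, count filters and prior count, a replicate block, leaving out each library, levels not divided by length and, added later, removal of the length trend.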

Additional observations from a re-analysis of the deposited data

How the results depend on the processing

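The 10 members kept their direction under every alternative except when a library was dropped. With each library left out, log2 fold changes ran from -0.23 to 0.061 for Igf2r, reversed without Veh replicate 1, and from -0.018 to 0.77 for Igfbp6, reversed without Hcy replicate 3. They ran from -0.75 to 0.52 for Irs1, reversed without Veh replicate 1, and from -0.17 to 0.065 for Insr, reversed without Hcy replicate 1, Veh replicate 1 or Veh replicate 2. The number of members at an adjusted p of at most 0.05, 1 in the main comparison, was 3 with DESeq2 and with the length trend removed, 2 without a filter on low counts, and 0 to 3 with each library left out. In each case with 3, they were Igfbp3, Igfbp7 and Igf1r. The number called with the fold threshold was 0 throughout, and 1 when that threshold was dropped. Of the pathway genes, 4 passed the adjusted p, against 7 with DESeq2 and 2 to 14 with each library left out, the most without Veh replicate 3. The 1 called pathway gene became 4 without the fold threshold, and 1 to 2 with each library left out, 2 without Hcy replicate 2 or Veh replicate 1, when Ccn3 passed the fold threshold. The cause of these changes was not tested. With the replicate number as a block, 1 member passed the adjusted p (Igfbp3, log2 fold change 0.90, adjusted p = 0.0315 from edgeR), as did 5 pathway genes. Deviations of same-numbered libraries from their group means correlated at 0.02, 0.17 and 0.06, and Hcy replicates 2 and 3 correlated most with their own number but Hcy replicate 1 with Veh replicate 3. The labels do not say that a number marks a shared source, and the libraries were not treated as pairs. In CPM not divided by length, Igfbp3 made up 1.08% of the binding protein pool in Hcy and 0.708% in Veh, Igfbp4 0.933% and 0.813%, and Igfbp7 97.9% and 98.4%. Over all genes, 341 passed the adjusted p and 71 were called, against 612 and 94 with DESeq2, 567 and 87 with the length trend removed, and 463 and 109 without a filter. With each library left out these counts ran from 80 to 957 and from 39 to 112, the highest without Veh replicate 3. FilterByExpr kept 6 of the 10 members. Counts under 40 in all for Igfbp2, Igfbp5, Igfbp6 and Irs1 limit what can be said of them.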
